A study of Homo sapiens with 8 samples.

Results

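The bile acid synthesis and transport genes examined here are 10 human genes chosen by symbol, namely the synthesis enzymes CYP7A1, CYP8B1 and CYP27A1, the uptake carrier SLC10A1, the canalicular pumps ABCB11, ABCB4 and ABCC2, and the basolateral exporters ABCC3, SLC51A and SLC51B. Of these, 9 were matched by symbol among the 17561 genes of the expression table, and expression of ABCB11, the bile salt export pump, was not analysed here. RNA-seq of mRNA was performed on HepG2 cells, a line derived from a human liver tumor, 48 h after transfection with either pGRHL2 or pcDNA3. pGRHL2 carries a flag-tagged cDNA of GRHL2, an epithelial transcription factor of the Grainyhead family, under the EEF1A1 promoter together with EGFP, whereas pcDNA3 is an empty vector, and the constructs therefore differ by more than the GRHL2 insert. There were 4 libraries for either plasmid, with replicate numbers 1 to 4, and the study describes its replicates as independent. According to the labels, all 8 cultures shared William's medium with 10% serum, insulin and 50 nM dexamethasone on gelatin-coated dishes. The share of cells that took up the plasmid was not analysed here, and each value is therefore an average over transfected and untransfected cells of 1 line.

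Bile acids are made from cholesterol in hepatocytes. CYP7A1 catalyses the rate-limiting step of the classical pathway, CYP8B1 adds the hydroxyl group that yields cholic acid, and CYP27A1 opens the alternative pathway in mitochondria. Hepatocytes take conjugated bile acids back from portal blood, secrete them through the canalicular membrane into bile, and can return them to blood through basolateral exporters. The nuclear receptor FXR, encoded by NR1H4, senses bile acids and is known to raise canalicular and basolateral export and, through NR0B2, to restrain CYP7A1.

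Values were on a log2 scale, scaled to mean transcript length, and differences are given as log2 fold changes (log2 FC, pGRHL2/pcDNA3). In all 17561 genes, averaging the pGRHL2 and pcDNA3 values of a replicate number gave 1 figure whatever the number, so that the libraries of a number mirror each other and were treated as 4 pairs. The SD given with a log2 FC is that of its 4 pair differences. Tests were made with limma, blocked on the replicate number and adjusted over all genes by the Benjamini-Hochberg method. With 4 pairs, an exact two-sided sign-flip test cannot give a p below 0.125. Because values of the pairs mirror each other, groups that do not overlap and 4 pair differences of 1 sign are the same observation. Read counts were not analysed here, so that the depth behind each value was unknown. GRHL2, which checks the labels, lay between 16.22 and 16.87 in the pGRHL2 libraries and between 6.61 and 7.25 in the pcDNA3 libraries.

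The question was whether transcripts of bile acid synthesis and transport changed upon ectopic GRHL2 expression. None of the 9 genes passed the test, with 0 higher and 0 lower at a limma adjusted p under 0.05. Over all genes, the same rule called 385 of 17561 genes (2.19%), of which 297 were higher (1.69%) and 88 were lower (0.501%). The balance turned to 63 higher and 81 lower when testing was limited to genes with a mean log2 value of 5 or more, which 6 of the 9 reached. An unadjusted limma p under 0.05 was found for 4 of the 9 genes, namely SLC51A, ABCC3, SLC51B and CYP7A1, all with higher values in pGRHL2, compared with 1611 of all genes with higher values (9.17%) and 1191 with lower values (6.78%). Groups did not overlap for 2 of the 9, SLC51A and SLC51B, with pGRHL2 higher, whereas 13.4% of all genes had non-overlapping groups with pGRHL2 higher. For 0 of the 9 were the groups separate with pGRHL2 lower, against 10.5% of all genes. The median log2 FC of the 9 genes was 0.061, against 0.0017 for all genes, with 7 positive and 2 negative values ranging from -0.055 to 0.26.

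**Figure D1:**
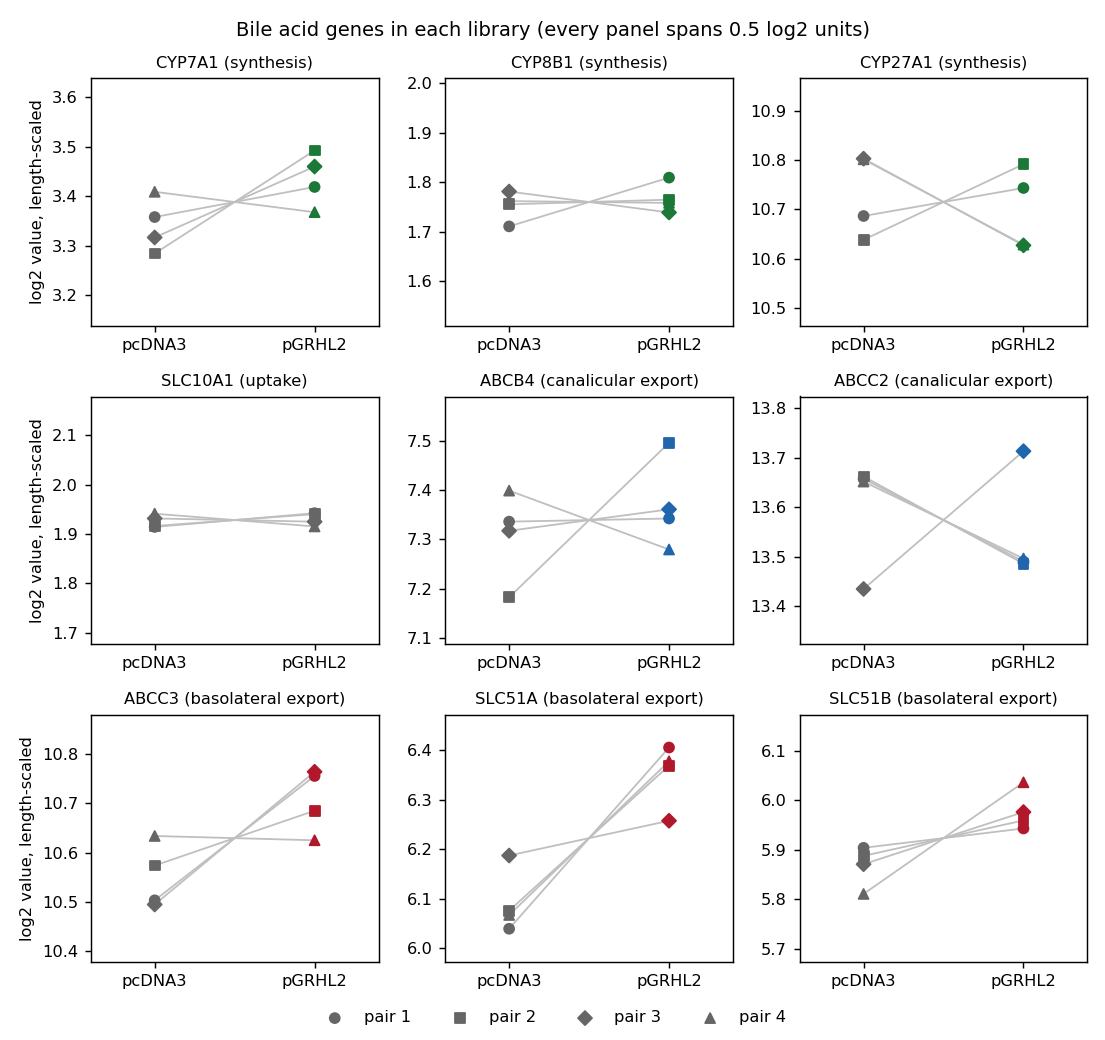
Length-scaled log2 values of the 9 genes in pcDNA3 and pGRHL2 libraries, 1 panel per gene, with the same-numbered libraries joined by a line and a symbol per pair. Each vertical axis spans 0.5 log2 units around the gene's mean, and only SLC51A and SLC51B have all 4 pGRHL2 points above all 4 pcDNA3 points.

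The genes covered a wide range of expression in this line, spanning 11.8 log2 units between the highest and the lowest mean over the 8 libraries. ABCC2, which encodes the canalicular pump MRP2 for conjugated bilirubin and other conjugates, was the highest, with a mean length-scaled log2 value of 13.57 that lay above 99.6% of all genes. CYP27A1 followed with a mean of 10.72 and ABCC3 with 10.63, at the 93.1 and 92.5 percentiles of all genes. These neighbours did not differ beyond their spread, since CYP27A1 was above ABCC3 in 6 of 8 libraries and their means were 0.086 apart. ABCB4 was intermediate at 7.34, and SLC51A and SLC51B, whose products form 1 heteromeric transporter, had means of 6.22 and 5.92.

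The lowest levels were those of CYP7A1, with a mean log2 value of 3.39, SLC10A1 with 1.93 and CYP8B1 with 1.76. CYP8B1 lay at the 15.5 percentile of all genes and SLC10A1 at the 16.9 percentile. Thus, the sodium-dependent uptake carrier NTCP, which SLC10A1 encodes, and the sterol hydroxylase CYP8B1 were listed near the bottom of the table in both groups. Apart from CYP27A1 and ABCC3, every gene of this order was above the next in 8 of 8 libraries. Because libraries of a replicate number mirror each other and replicate effects had been removed, these 8 libraries are not independent readings of level. Since the scaling used a mean over annotated transcripts, which comes to 778 bases over 14 transcripts for SLC51A and 924 bases for the single transcript of SLC51B in GENCODE release 44, the order of near neighbours also depends on that length. The same holds for SLC10A1 (2002 bases) and CYP8B1 (mean of 2792 bases), whose means were 0.17 apart. Values of SLC10A1 spanned less than 0.05 log2 units over the libraries, a range in which values followed transcript length.

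**Figure D2:**
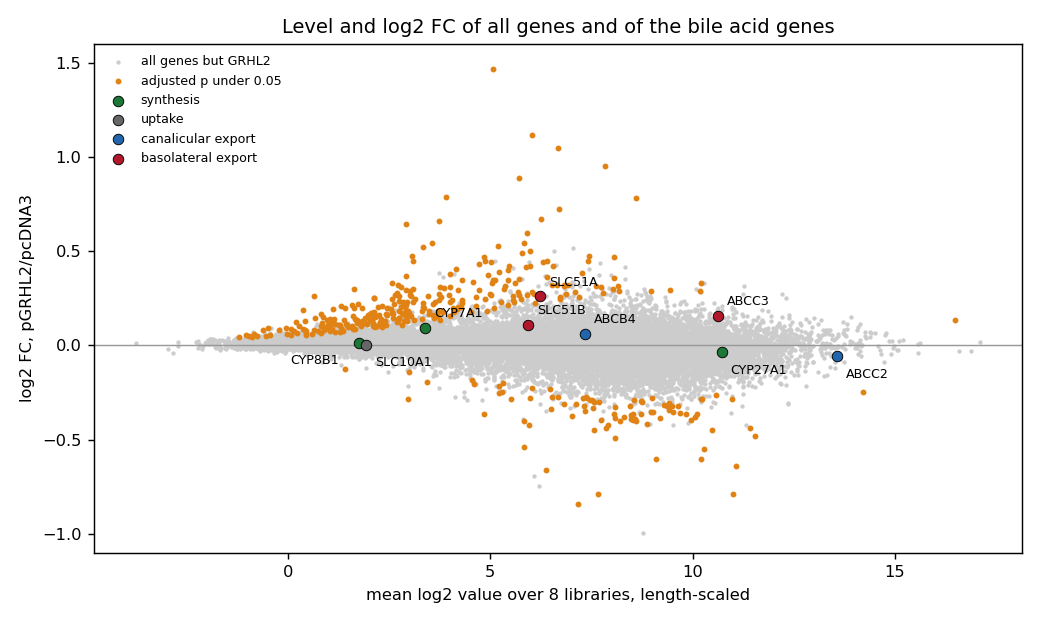
Mean length-scaled log2 value over the 8 libraries (horizontal axis) against the log2 FC (vertical axis) for all genes but GRHL2, in grey, with genes at a limma adjusted p under 0.05 in orange and the 9 bile acid genes as large labelled points. SLC51A, at 0.26, is the highest of the 9, and none of the 9 passed the test that marks the orange points.

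Among the synthesis enzymes, CYP7A1 had the highest log2 FC and none passed the test. CYP7A1, on the minus strand of chromosome 8 from 58490178 to 58500163 (hg38), had log2 values of 3.42, 3.49, 3.46 and 3.37 in pGRHL2 libraries 1 to 4, and of 3.36, 3.28, 3.32 and 3.41 in pcDNA3 libraries 1 to 4. The values were higher with pGRHL2 in pairs 1 to 3 and lower in pair 4, and the groups overlapped. CYP7A1 thus had log2 FC 0.093 ± 0.11 (SD over 4 pairs), with an unadjusted limma p of 0.0466 and an adjusted p of 0.303. Leaving out a pair placed this log2 FC between 0.054 and 0.14. The rlog transformation used by the authors shrinks differences of genes with few reads towards 0, and its effect on CYP7A1 was not tested.

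CYP27A1, the mitochondrial sterol hydroxylase of the side chain, lies on chromosome 2 from 218781749 to 218815293. Its log2 values were 10.74, 10.79, 10.63 and 10.63 in pGRHL2 libraries 1 to 4, and 10.69, 10.64, 10.80 and 10.80 in pcDNA3 libraries 1 to 4. Pairs 1 and 2 were higher with pGRHL2, by 0.0567 and 0.153, and pairs 3 and 4 were lower, by 0.175 and 0.173. Averaged over pairs, log2 FC was -0.035 ± 0.17 (SD over 4 pairs, limma adjusted p 0.878), and its direction turned when pair 3 or pair 4 was left out or when libraries were weighted.

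CYP8B1, on chromosome 3 from 42856005 to 42875898, had log2 values between 1.74 and 1.81 in pGRHL2 and between 1.71 and 1.78 in pcDNA3. The log2 FC of CYP8B1 was 0.016 (limma 95% interval from -0.038 to 0.069), and without pair 1 it was -0.012. Its exons share 3.40% of their bases with ACKR2, and counting was unstranded, so that reads over these bases cannot be assigned to 1 gene.

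The uptake carrier SLC10A1, on chromosome 14 from 69775416 to 69797241, was nearly flat across the libraries. Its log2 values lay between 1.92 and 1.94 in pGRHL2 and between 1.91 and 1.94 in pcDNA3. Its log2 FC was 0.0049 (limma 95% interval from -0.037 to 0.046), and the direction turned without pair 1 or without pair 2. Intervals were narrower for low values throughout the table, with a median SE of log2 FC of 0.022 for genes with a mean below 5 and 0.061 for the others, and hold on the scale of the deposited values.

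The canalicular exporters did not pass the test either, and their pairs diverged. ABCC2, on chromosome 10 from 99782640 to 99852594, had log2 values of 13.49, 13.49, 13.71 and 13.50 in pGRHL2 libraries 1 to 4. In pcDNA3 libraries 1 to 4 they were 13.66, 13.66, 13.43 and 13.65. Thus 3 pairs were lower with pGRHL2, by 0.156 to 0.176, and pair 3 was higher by 0.279. Over the 4 pairs, log2 FC was -0.055 ± 0.22 (SD over 4 pairs, limma adjusted p 0.791). Without pair 3 it was -0.17, with a limma adjusted p of 0.100, and without any 1 of the others it lay between -0.022 and -0.015.

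ABCB4, which encodes the phosphatidylcholine floppase MDR3, lies on chromosome 7 from 87401696 to 87480435 next to its paralog ABCB1. Its log2 values were 7.34, 7.50, 7.36 and 7.28 in pGRHL2 libraries 1 to 4, and 7.34, 7.18, 7.32 and 7.40 in pcDNA3 libraries 1 to 4. Pair 2 gave the main difference (0.313), pair 4 was lower by 0.119, and the groups overlapped. Its mean log2 FC was 0.061 ± 0.18 (SD over 4 pairs, limma adjusted p 0.759), and without pair 2 it was -0.023. ABCB1, the multidrug exporter, looked at after its value was known, was lower in pGRHL2 (log2 FC -0.26, limma adjusted p 0.0443). Reads that fit both paralogs were handled by the authors' counting, and their share was not tested.

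All 3 basolateral exporters had positive log2 FC, with a median of 0.16, and each had an unadjusted p under 0.05 without passing the adjusted test. SLC51A encodes the alpha subunit of the organic solute transporter, which moves bile acids across the basolateral membrane together with the beta subunit encoded by SLC51B. The SLC51A gene lies on chromosome 3 from 196211487 to 196243178. In pGRHL2 libraries 1 to 4, it had log2 values of 6.41, 6.37, 6.26 and 6.38. In pcDNA3 libraries 1 to 4, its log2 values were 6.04, 6.08, 6.19 and 6.07. Every pGRHL2 library was above every pcDNA3 library, with pair 3 showing the smallest gap (0.0704, against 0.293 to 0.367 in the other pairs). The log2 FC was 0.26 ± 0.13 (SD, n = 4 pairs), a 1.20-fold difference with a limma 95% interval from 0.13 to 0.39 on the log2 scale. The unadjusted limma p was 0.00162 and the adjusted p was 0.0593, just outside the threshold, and the exact sign-flip p was 0.125.

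SLC51B lies on chromosome 15 from 65045387 to 65053397. Its log2 values were 5.94, 5.96, 5.98 and 6.04 in pGRHL2 libraries 1 to 4, and 5.90, 5.89, 5.87 and 5.81 in pcDNA3 libraries 1 to 4. The groups again did not overlap, and the gap was widest in pair 4 (0.226) and narrowest in pair 1 (0.0391). Its log2 FC was 0.11 ± 0.081 (SD over 4 pairs), with an unadjusted limma p of 0.0462, an adjusted p of 0.301 and an exact sign-flip p of 0.125, and without pair 4 the log2 FC was 0.072. Both subunits share a small part of their exon bases with a neighbour, 7.39% with PCYT1A for SLC51A and 6.60% with RASL12 for SLC51B. For PCYT1A, log2 FC was 0.058 (limma adjusted p 0.742).

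ABCC3, which encodes the basolateral conjugate exporter MRP3 and lies on chromosome 17 from 50634777 to 50692253, was the most strongly expressed of the basolateral exporters. Its log2 values were 10.76, 10.68, 10.76 and 10.62 in pGRHL2 libraries 1 to 4, and 10.50, 10.57, 10.49 and 10.63 in pcDNA3 libraries 1 to 4. Pairs 1 to 3 were higher with pGRHL2, by 0.111 to 0.269, and pair 4 differed by -0.0087, so that the groups overlapped. For ABCC3, log2 FC was 0.16 ± 0.13 (SD over 4 pairs), with an unadjusted limma p of 0.0362 and an adjusted p of 0.270.

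None of these exporters passed in the main fit, and calls appeared when the replicate block was dropped or when libraries were weighted with the block kept. In the fit without the replicate block, which counts degrees of freedom that mirrored libraries do not provide, SLC51A (adjusted p of 0.0037), SLC51B (0.0298) and ABCC3 (0.0359) passed, together with 18.5% of all genes. With limma's library weights, SLC51A alone of the 9 passed, with a log2 FC of 0.28 and an adjusted p of 0.0269, while 4.12% of all genes were called.

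Promoters of the organic solute transporter subunits are shown because these were the genes of the list whose groups did not overlap. Each runs from 250 bases before to 50 bases after the gene start given by RefSeq (GRCh38.p14), on the plus strand, and capitals mark AGGTCA, a hexamer bound by many nuclear receptors. The SLC51A promoter, chr3:196216284-196216583, has a GC content of 65.0% and holds no match, and it lies inside the gene span given above from GENCODE, which starts further upstream than the RefSeq gene. The SLC51B promoter, chr15:65045137-65045436, has a GC content of 55.0% and holds 1 match that begins 54 bases before the start.
SLC51A: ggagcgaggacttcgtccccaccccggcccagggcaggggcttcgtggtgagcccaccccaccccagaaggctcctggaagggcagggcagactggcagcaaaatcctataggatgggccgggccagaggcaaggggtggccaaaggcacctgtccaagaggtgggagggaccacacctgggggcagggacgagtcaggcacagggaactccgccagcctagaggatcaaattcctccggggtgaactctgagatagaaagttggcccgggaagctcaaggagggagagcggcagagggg
SLC51B: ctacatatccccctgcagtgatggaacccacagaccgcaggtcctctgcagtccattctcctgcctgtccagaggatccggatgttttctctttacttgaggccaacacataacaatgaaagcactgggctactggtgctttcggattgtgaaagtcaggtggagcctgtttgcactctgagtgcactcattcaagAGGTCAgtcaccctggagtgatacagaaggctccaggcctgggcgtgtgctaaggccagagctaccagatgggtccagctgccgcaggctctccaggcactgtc

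Promoter sequences were matched for 6 of the 10 genes, ABCB11 among them, and not for CYP7A1, CYP8B1, ABCB4 and ABCC3. On either strand, 0 of these 6 held AACCNGGTT, the letters written here for a Grainyhead site, which 84 of 35116 promoters hold (0.239%). Forms of the site without a base between AACC and GGTT were not searched, so the count does not cover them. The inverted repeat bound by FXR, written here as GGTCANTGACC, was found in 0 of 6 and in 4 of 35116 promoters (0.0114%). The hexamer AGGTCA, searched after these motifs had given no match and overlapping in letters with the FXR repeat, was found in 2 of 6, SLC10A1 and SLC51B, and in 4857 of 35116 promoters (13.8%). In SLC51B the hexamer stands in AGGTCAgtcacc, which is close to the FXR repeat without matching it. Only exact matches were searched, and how many promoters hold a near match was not examined. A window without a match says only that these letters are not in it.

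The 9 genes moved differently from pair to pair. Values were higher with pGRHL2 for 8 of 9 genes in pair 1, 8 of 9 in pair 2, 6 of 9 in pair 3 and 2 of 9 in pair 4, whereas between 51.5% and 52.3% of all genes were higher in each pair. In pair 4, SLC51A and SLC51B were the 2 genes with higher values, by 0.311 and 0.226. Of the further pathway genes described below, 2 of 6 transport genes and 2 of 15 regulators were higher in pair 4. Of the further synthesis and conjugation genes, 8 of 13 were higher in pair 4. ABCC2 ran against the majority in pairs 1 and 2, where it was the 1 gene with a lower value.

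Markers of hepatocytes also differed between pairs. All 10 hepatocyte markers were in the table, with mean log2 values of 16.9 for ALB and 2.73 for CYP3A4, and 0 of them passed the test. Their log2 FC were positive for 7 of 10 and negative for 3, with a median of 0.049. The mean log2 value of the list ranged from 9.53 to 9.67 in pGRHL2 and from 9.40 to 9.55 in pcDNA3. In pair 2, 10 of 10 were higher with pGRHL2, with a median difference of 0.23, against 5 of 10 in each of the other pairs. The pair 2 difference was the highest of the 4 for CYP7A1, CYP27A1 and ABCB4. The highest was that of pair 1 for CYP8B1, SLC10A1 and SLC51A, of pair 3 for ABCC2 and ABCC3, and of pair 4 for SLC51B. The part of hepatocyte markers in the values of the bile acid genes was not tested. In bulk samples, fewer cells of a type and less RNA per cell cannot be told apart.

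Cholangiocytes, the bile duct cells, also express the organic solute transporter and ABCC3. Of 10 cholangiocyte markers, 9 were in the table and 0 passed the test, but all 9 had positive log2 FC with a median of 0.11. The highest were KRT7 (0.19, limma adjusted p 0.097) and CLDN4 (0.17, limma adjusted p 0.235). The study, which tested read counts with DESeq2, names both among genes induced by GRHL2, and that test was not repeated here. The mean log2 value of the cholangiocyte markers ranged from 8.52 to 8.59 in pGRHL2 and from 8.40 to 8.48 in pcDNA3, without overlap. The mean of the 9 bile acid genes did not overlap either, with 6.832 to 6.887 in pGRHL2 and 6.775 to 6.830 in pcDNA3. This separation was slight, since in pair 4 the mean difference of the 9 was 0.0011 and their median difference -0.026. The list means of the further synthesis and conjugation, transport and regulator genes described below overlapped between the groups. How often list means separate in this way was not tested, and 13.4% of single genes did so with pGRHL2 higher. KRT19 was listed at 13.9 and EPCAM at 11.6 in this tumor line, whereas CFTR was at -1.07. Markers of other cell types, of which 5 of 8 were matched, had mean values from 1.91 for VWF to 13.3 for LYZ, and 0 passed, with 5 of 5 log2 FC positive and a median of 0.059. Of 10 interferon and heat shock genes, 8 were in the table, of which the heat shock gene HSPA6 rose and 0 fell, with 5 of 8 positive and a median of 0.11. The part of these markers in the values of the basolateral exporters was not tested.

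**Figure D3:**
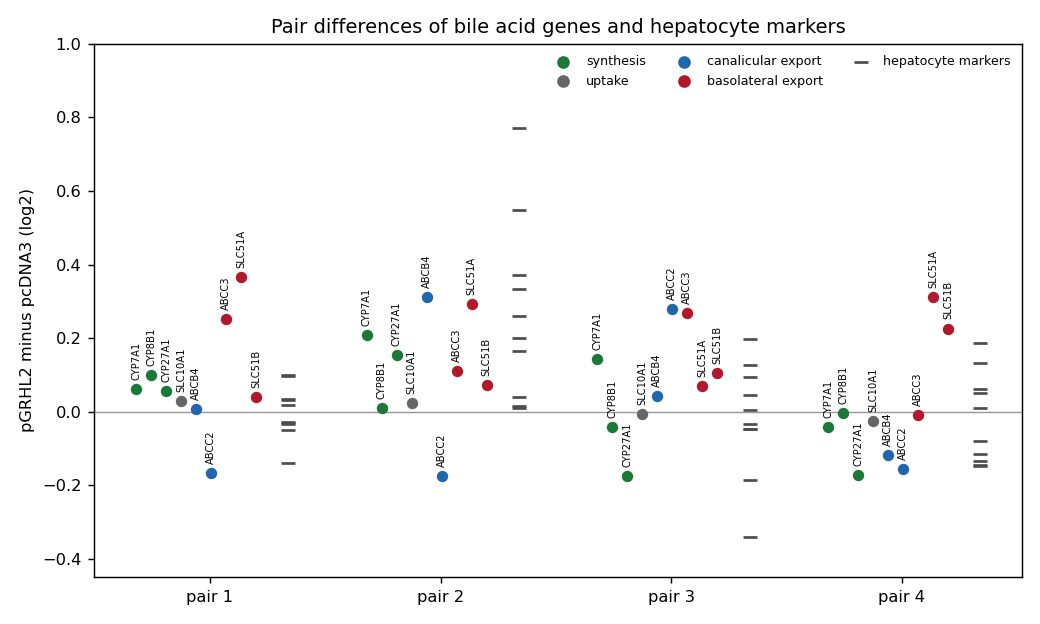
Difference between pGRHL2 and pcDNA3 log2 values (vertical axis) of the 9 bile acid genes, coloured by role, and of the 10 hepatocyte markers (dashes) in each of the 4 pairs. SLC51A and SLC51B are above 0 in every pair, ABCC2 is above 0 in pair 3 only, and the hepatocyte markers are all above 0 in pair 2.

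The other genes of the pathway were read from lists by function. Of 15 further synthesis and conjugation genes, 13 were in the table and 0 passed in either direction, with a median log2 FC of 0.0034. The largest differences among those with a mean log2 value of 5 or more belonged to SLC27A2, a very long-chain acyl-CoA synthetase (0.13, limma adjusted p of 0.296), HSD3B7, the sterol dehydrogenase acting after CYP7A1 (0.12, limma adjusted p of 0.379), and ACOT8, a peroxisomal thioesterase (-0.11, limma adjusted p of 0.410; -0.067 without pair 1). Considerable parts of the exons of HSD3B7 (64.8%) and ACOT8 (34.2%) are shared with another annotated gene, as are 20.0% of those of SLC27A2, so that these values are uncertain.

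Of 11 further transport genes, 6 were in the table, and 1 rose and 0 fell. ATP8B1 encodes the canalicular aminophospholipid flippase whose loss causes familial intrahepatic cholestasis, and lies on chromosome 18 from 57646426 to 57803315. Its log2 values were 7.02, 7.01, 6.96 and 6.89 in pGRHL2 libraries 1 to 4, and 6.60, 6.61, 6.66 and 6.73 in pcDNA3 libraries 1 to 4. All pGRHL2 libraries were above all pcDNA3 libraries, at a log2 FC of 0.32 ± 0.12 (SD over 4 pairs, limma adjusted p 0.0308). The call was lost without replicate 1 (limma adjusted p of 0.173), 2 (0.141) or 3 (0.110), and 9.23% of its exon bases are shared with antisense or overlapping genes. For ABCG5, which exports sterols into bile as a heterodimer with ABCG8, log2 FC was 0.22 (limma adjusted p 0.151; 0.14 without pair 1), and for SLCO2B1, an organic anion uptake carrier, it was 0.065 (limma adjusted p 0.645; 0.029 without pair 3 and 0.10 without pair 4).

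Of 15 regulators of bile acid genes, all 15 were in the table, and 0 rose and 1 fell, with a median log2 FC of -0.033 and 11 negative values. MAFG encodes a small basic leucine zipper factor known as an FXR-induced repressor of bile acid synthesis genes, and lies on chromosome 17 from 81918270 to 81927735. Its log2 values were 9.19, 9.13, 9.25 and 9.22 in pGRHL2 libraries 1 to 4, and 9.52, 9.58, 9.47 and 9.49 in pcDNA3 libraries 1 to 4. The groups were well apart, at a log2 FC of -0.32 ± 0.10 (SD over 4 pairs, limma adjusted p 0.0354). The call was lost whichever replicate was left out, with limma adjusted p from 0.0735 to 0.196. Of its exon bases, 6.28% are shared with neighbours that include SIRT7, whose log2 FC was 0.0038.

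The receptor and mediators that govern these transporters did not pass the test. Log2 FC of NR1H4 was 0.11 ± 0.38 (SD over 4 pairs) and that of NR0B2, the repressor it induces, was 0.019 ± 0.18. PPARGC1A, a hepatic coactivator of bile acid genes, was at -0.13 (limma adjusted p 0.327). Together, 34 of the 41 further genes were in the table, with 1 higher and 1 lower, against 2.19% of all genes called.

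**Figure D4:**
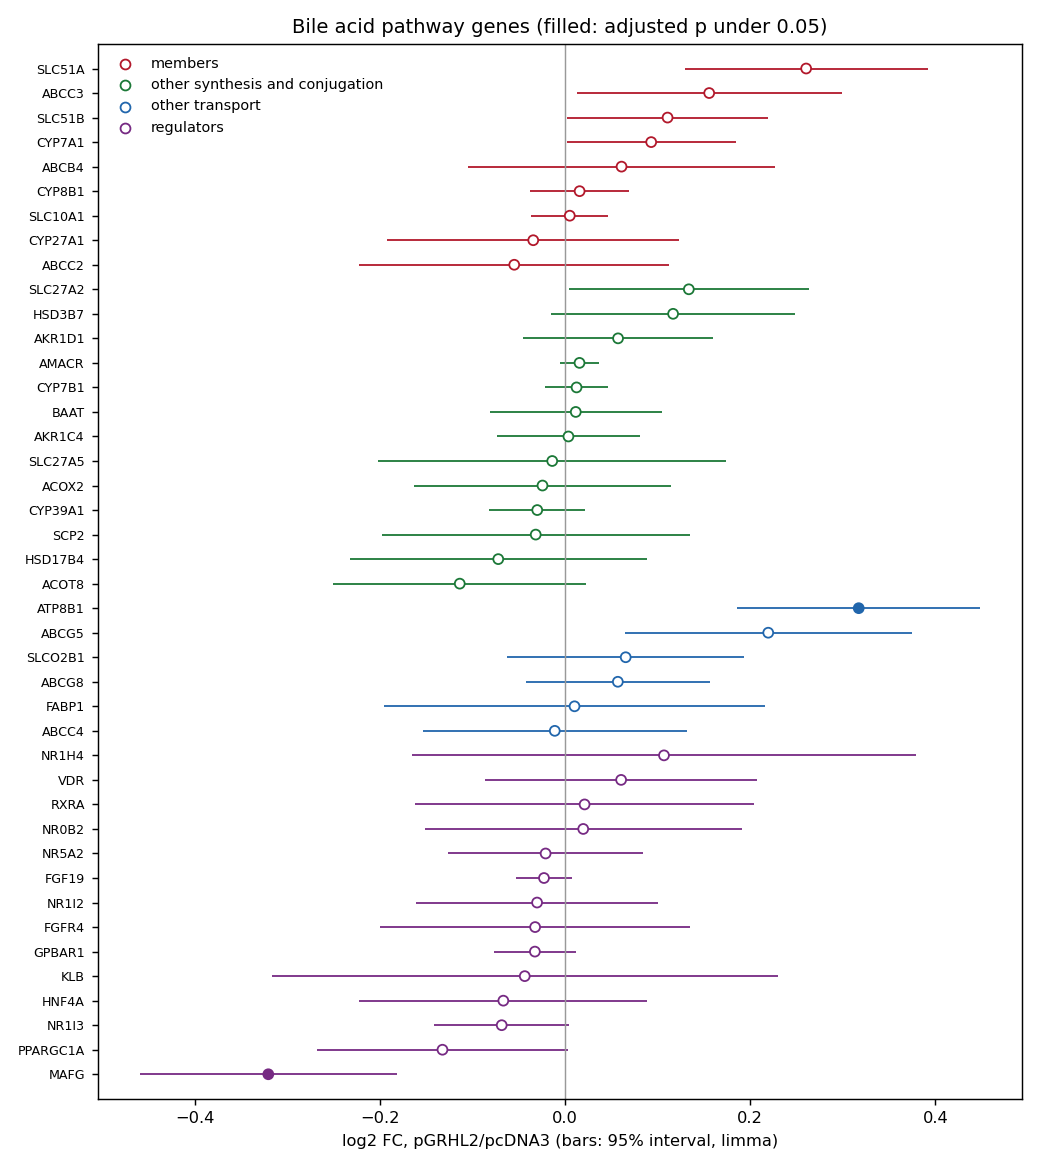
Log2 FC (horizontal axis) with limma 95% intervals for the 9 bile acid genes and further pathway genes in the table, grouped by list and ordered by log2 FC within a list, with filled points for a limma adjusted p under 0.05. ATP8B1 (0.32) and MAFG (-0.32) are the filled points, and SLC51A (0.26) is the highest of the 9.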

How the data were processed

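According to the methods of the study and the submitters' processing notes, the authors aligned reads to hg38 with HISAT2 2.2.1, counted those over exons with HTSeq 0.9.1 without strand (alignment quality of 10 or more), dropped weakly covered genes, applied rlog in DESeq2 1.40.2 and scaled by mean transcript length. The versions are those of the notes, and the methods name other versions of the aligner and of the package that gave rlog. The deposited values, named as FPKM, are log2 values, since 3.71% were negative and since values of 2371 nearly constant genes (library range under 0.05) declined against log2 mean transcript length with a slope of -0.84 (-0.081 over all genes, whose expression differs widely). Rlog pulls fold changes of weakly covered genes towards 0. The pair means were identical in 17561 of 17561 genes (tolerance 1e-10), which shows that replicate effects had been removed, a step the methods do not describe. No pairing can be checked by correlation in such values, and the pairing follows the replicate numbers. One stray character was removed from a value, and 0 columns were left unmapped.

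Limma 3.58.1 (R 4.3.3; lmFit, eBayes with trend) was fitted to all genes and blocked on the replicate number (3 residual degrees of freedom, against 6 unblocked), after it had been tested on simulated data. The threshold was an adjusted p of 0.05. Coordinates and shared exon bases came from GENCODE release 44, which held 99.9% of symbols, and promoters from RefSeq. The genes named were the 10 listed genes, GRHL2, each further pathway gene called, and in each further pathway list the 3 with the largest absolute log2 FC among those with a mean value of at least 5. NR1H4, NR0B2, ABCB1, the neighbours that share exons and single markers were named outside this rule, with their values known. Some genes are counted in the lists but not reported here by name, in the text or in the plot of pathway genes. The members and lists were chosen with earlier results of these data known. Alternatives were no block, no trend, robust eBayes, library weights, equal library medians, a mean value of at least 5, an adjusted p under 0.01 and leaving out each replicate, that is both libraries of a number.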

Additional observations from a re-analysis of the deposited data

Results flagged for a closer look

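Among the 19 sets of 4 pair differences examined, 2 had a single pair far from the others by Dixon's criterion, which flags about 1 in 20 by chance. For ABCC2 this was pair 3, higher by 0.279 with pGRHL2, while the other pairs gave -0.176 to -0.156. For SLC27A2 it was pair 1, with a difference of 0.0097, while the other pairs gave 0.160 to 0.188.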

How the results depend on the processing

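Log2 FC of the 9 genes kept their direction and their side of the threshold in 30 of 36 fits that left out a replicate and in 46 of 51 other fits. Without the replicate block, 3 of the 9 were called (SLC51A, SLC51B and ABCC3), with 1821 genes higher and 1427 lower overall and 7 further pathway genes. Library weights called 1 of the 9 (SLC51A), 503 genes higher and 221 lower. Without a trend, 0 further pathway genes were called, 4 genes were higher and 2 lower. A mean value of at least 5 left 63 higher and 81 lower genes, and an adjusted p under 0.01 left 77 higher and 10 lower. Leaving out a replicate gave 79 to 156 higher genes, 8 to 68 lower genes and 0 to 1 further pathway genes, and 0 of the 9, with the fewest calls over all genes without replicate 1. It turned the direction of CYP8B1 (-0.012 to 0.035), CYP27A1 (-0.097 to 0.012), SLC10A1 (-0.0028 to 0.015) and ABCB4 (-0.023 to 0.12). CYP27A1 also turned with library weights (0.0010). The filter, the stricter threshold and the left-out replicates use fewer genes, a lower limit or fewer samples, and the cause of the other shifts was not tested. The median log2 FC of the 9 ranged from 0.018 without replicate 2 to 0.079 without replicate 1. SLC51A had adjusted p from 0.0530 to 0.266 when a replicate was left out. ATP8B1 (0.102) and MAFG (0.0946) lost their calls without a trend. Depth was unknown, and 4 pairs limit the precision.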
